A study of Mus musculus with 6 samples.

Results

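The 10 PYHIN genes Aim2, Ifi203, Ifi204, Ifi205, Ifi207, Ifi208, Ifi209, Ifi211, Ifi213 and Mndal, taken by name from the Ifi200 cluster of mouse chromosome 1, were followed in polyadenylated RNA of MuTuDC1940 cells with and without poly(I:C). They are 10 of the 32903 gene symbols in the table, and all 10 passed the limit of a mean of 0.5 TPM that left 12520 genes for testing. The members were chosen by family name with their TPM in these untreated and poly(I:C) libraries known, so their levels and ratios are given as a description, without a test. The MuTuDC lines were grown out of dendritic cell tumours of mice that express the SV40 large T antigen from the CD11c promoter, and MuTuDC1940 resembles type 1 conventional dendritic cells (cDC1). Untreated and treated cells alike thus come from 1 transformed line. Poly(I:C), a man-made double-stranded RNA used to imitate infection by a virus, was given at 5 µg/ml for 18 hours, and untreated cells served as controls. Of 3 samples per group, 2 libraries per group are compared here (the columns headed NT01 and NT02 untreated, PolyIC01 and PolyIC02 treated), because 1 of the 6 value columns has no heading and the group of 2 columns is therefore not settled. Whether samples of a group came from separate cultures is not said in the labels; spread and p-values therefore measure only how these libraries differ, which may be technical.

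PYHIN proteins join an N-terminal pyrin domain, which binds other pyrin domains, to 1 or more HIN domains, which bind DNA; some family members lack one of these parts. AIM2 binds DNA in the cytosol and recruits the adaptor ASC (gene Pycard), which activates caspase-1, and the product of Ifi204 is regarded as the mouse counterpart of human IFI16, a DNA sensor upstream of interferon. The family is larger in mouse than in human, it is known for induction by interferon, and in mouse its genes lie in a single array that holds several close copies.

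In the RefSeq annotation of GRCm38.p6 the array holds 14 PYHIN genes between positions 173349547 and 174031755 of chromosome 1, a span of 682 kb, with 0 other genes of the table lying wholly inside it; Cadm3 overlaps its first bases. Aim2 is first by position, followed by Ifi206, Ifi214, Ifi213, Ifi209, Ifi208, Ifi207, Ifi204, the pseudogene Ifi203-ps, Mndal, Ifi211, Ifi203, Ifi202b and Ifi205. Ifi206 and Ifi203-ps have no matched row and were not analysed here.

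Near their annotated starts most members carry the same short interferon-response letters. The window from 250 bases before to 50 bases after the start (RefSeq, GRCm38.p6) was available for 9 of the 10 members, Ifi204 being the one not in the table. It was searched on both strands for GAAA followed by any 2 bases and GAAA, the core of the interferon-stimulated response element that STAT and IRF factors bind, and for TTCNNNGAA, the core of the gamma-activated site known from genes that answer to interferon-gamma. No member window holds the second motif, so an overlap between the motifs could not occur. The first was found in 7 of the 9 members, or 77.8%, against 3.99% of the 27025 genes with a window. The second was found in 0 of the 9 members, against 9.55% of genes, which says only that these letters are absent from the windows. Since several members are close copies, the 7 matches are not independent of each other, and a match is not a shown binding site.

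The 60 bases around the match are shown for the 7 members that hold it, for the family gene Ifi214, and for Ifi209, whose closest stretch is nearly the same; the 10 motif positions are in capitals.
Ifi213 (chr1:173599311-173599370, minus strand): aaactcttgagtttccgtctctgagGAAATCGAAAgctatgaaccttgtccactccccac
Ifi208 (chr1:173673582-173673641, plus strand): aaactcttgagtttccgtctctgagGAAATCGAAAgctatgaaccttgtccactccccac
Ifi203 (chr1:173942493-173942552, minus strand): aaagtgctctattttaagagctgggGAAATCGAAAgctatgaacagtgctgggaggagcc
Mndal (chr1:173880189-173880248, minus strand): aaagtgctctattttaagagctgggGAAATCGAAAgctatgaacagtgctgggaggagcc
Ifi207 (chr1:173741816-173741875, minus strand): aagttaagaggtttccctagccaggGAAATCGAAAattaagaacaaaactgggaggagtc
Ifi211 (chr1:173913049-173913108, minus strand): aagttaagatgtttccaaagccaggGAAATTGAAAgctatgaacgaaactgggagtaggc
Ifi205 (chr1:174031855-174031914, minus strand): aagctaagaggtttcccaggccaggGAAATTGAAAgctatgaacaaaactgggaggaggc
Ifi214 (chr1:173536002-173536061, minus strand): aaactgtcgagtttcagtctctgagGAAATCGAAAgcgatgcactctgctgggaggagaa
Ifi209 (chr1:173630755-173630814, plus strand): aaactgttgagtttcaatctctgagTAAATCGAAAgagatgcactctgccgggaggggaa

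Read side by side, some of the stretches are identical or nearly so. Ifi213 and Ifi208 were identical over all 60 bases, and so were Ifi203 and Mndal. Ifi205 and Ifi211 shared 54 of 60 bases, Ifi205 and Ifi207 shared 52, Ifi207 and Ifi211 shared 50, and Ifi213 and Ifi205 shared 31. The exact letters GAAATCGAAA, chosen after the stretches were seen, stand in windows of 16 of the 27025 genes, of which 5 are members described here and 2 more are the family genes Ifi206 and Ifi214. The match begins 35 bases before the start in Ifi203, 36 in Mndal, 37 in Ifi211, 41 in Ifi207, 58 in Ifi208, 73 in Ifi213 and 134 in Ifi205. Ifi205 holds a further match on the opposite strand 23 bases after its start, and a second annotated start of Mndal has one on the opposite strand 54 bases upstream, while the window of a second annotated start of Ifi203 holds none.

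Among the members with a window, Ifi209 and Aim2 lack the motif in the window searched. The annotated Aim2 gene begins at position 173349547, upstream of its window, so for Aim2 this covers only the start searched. In Ifi209 the aligned stretch begins its 10 positions 79 bases before the start, as in Ifi214, and matches Ifi214 at 54 of 60 bases. Counted from the 5′ end of the 10 positions, it carries the substitution G1T relative to Ifi214, which removes the match to the motif. The closest stretch in the Aim2 window shared 27 of 60 bases with that of Ifi206, and its core differed at 4 of the 10 positions. The whole Aim2 window is given because it has neither motif; no letter is in capitals.
Aim2 (chr1:173420354-173420653, plus strand): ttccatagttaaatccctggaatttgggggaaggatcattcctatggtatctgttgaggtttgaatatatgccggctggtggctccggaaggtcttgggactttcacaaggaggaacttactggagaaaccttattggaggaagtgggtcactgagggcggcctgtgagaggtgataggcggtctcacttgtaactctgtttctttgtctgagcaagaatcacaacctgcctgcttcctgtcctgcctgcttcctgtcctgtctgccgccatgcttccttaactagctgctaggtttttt

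In untreated cells the family ranged from a mean of 4.52 TPM to one of 273 TPM (a transcript abundance corrected for length that sums to 1000000 in each library, so levels of different genes can be compared). By mean level the order was Ifi205, Ifi211, Ifi207, Mndal, Aim2, Ifi204, Ifi209, Ifi203, Ifi213 and Ifi208. In this order the values of Ifi204 and Ifi209 overlapped, and no other neighbours did. With poly(I:C) the order became Ifi205, Ifi211, Ifi207, Ifi204, Mndal, Ifi209, Ifi213, Ifi203, Aim2 and Ifi208. Ifi207, Ifi204 and Mndal then overlapped, and Aim2 had gone from the fifth to the ninth place.

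**Figure D1:**
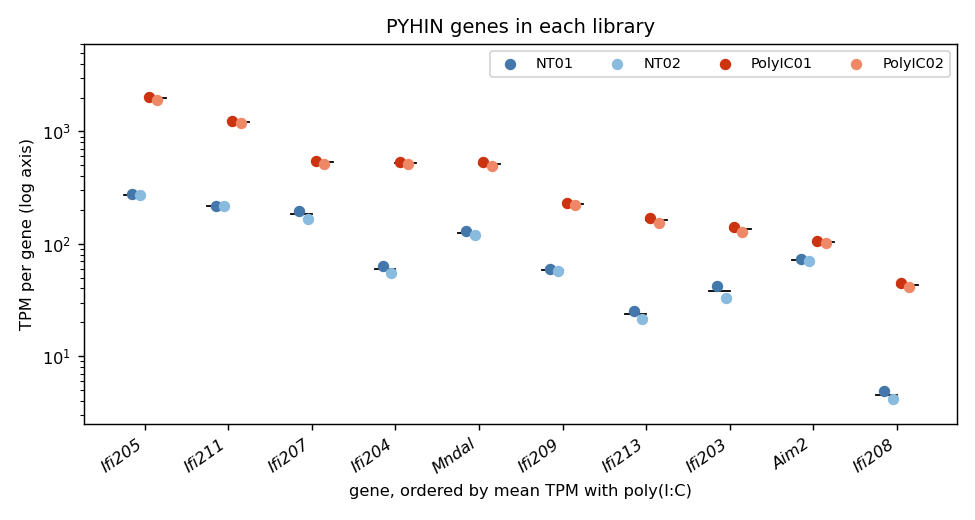
TPM per gene on a log axis for the 10 members in each of the 4 libraries; points are libraries and short lines the group means. For every member both poly(I:C) points lie above both untreated points, with the narrowest gap at Aim2 and wide gaps at Ifi208 and Ifi204.

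Both treated libraries lay above both untreated libraries for 10 of the 10 members, against 38.9% of all tested genes. In the fit of all genes with limma, on which the calls for genes outside the family rest, 28.4% of genes were called as rising and 32.4% as falling at an adjusted p of 0.05; no call is used for the members. Mean TPM was at least 2 times higher for 9 members, against 8.69% of genes, and at least 5 times higher for 5 members, against 2.18%. Because the members were chosen with this comparison known, nothing is read from these counts. The median log2(TPM + 1) difference was 2.26 over the members and -0.02 over all tested genes. Among the 12520 differences Ifi204 ranked 55th from the top, Ifi208 63rd and Aim2 1730th.

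**Figure D2:**
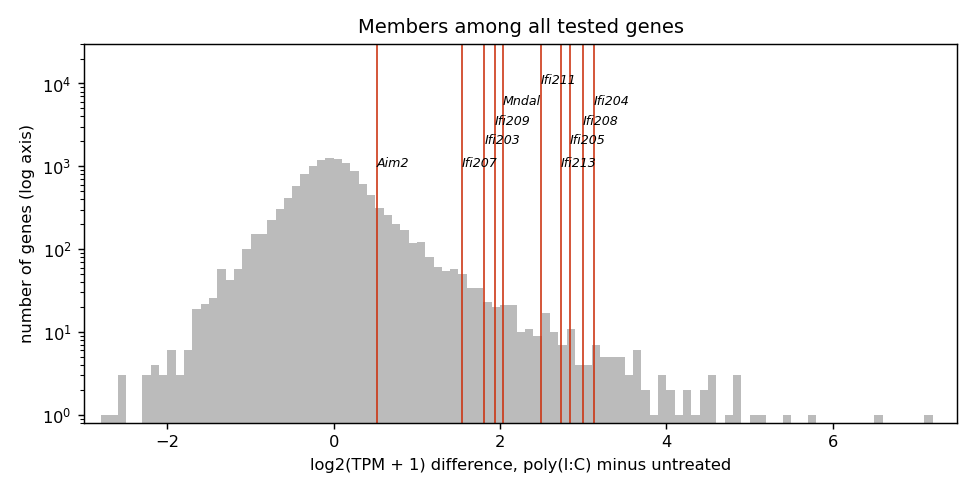
Number of genes, on a log axis, by log2(TPM + 1) difference (poly(I:C) minus untreated) for the 12520 tested genes, with a line for each member. Aim2 lies at 0.52 in the shoulder of the main peak, and the other 9 members lie between 1.54 and 3.13 in its right tail.

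Among the members with known sensor roles, the 2 best studied had quite different ratios. Aim2, the sensor of the DNA inflammasome, was measured at 73.9 and 70.4 TPM before and at 106 and 101 TPM after poly(I:C). Its mean was 72.1 ± 2.45 TPM in untreated and 104 ± 3.37 TPM in treated cells, 1.44-fold higher (errors are SDs of n = 2 libraries in each group here and in what follows). The groups did not overlap, but this was the smallest ratio in the family. Ifi204 stood at 63.1 and 55.2 TPM without and 536 and 511 TPM with poly(I:C). Its mean was 8.85-fold higher (59.2 ± 5.58 to 524 ± 17.8 TPM), and the log2(TPM + 1) difference was 3.13. Untreated cells thus held less Ifi204 than Aim2 RNA, and treated cells more, without overlap between the genes in either group.

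The most abundant members were Ifi205 and its neighbour in sequence, Ifi211, which is listed under the older names Mnda and Ifi205b. Ifi205, whose product has been reported to affect expression of the ASC gene in mouse macrophages, stood at 276 and 270 TPM without and 2024 and 1910 TPM with poly(I:C). That is 7.20-fold higher in the mean (273 ± 4.14 to 1967 ± 80.7 TPM), and it placed the gene 40th of all tested genes by level in treated cells, from 517th in untreated cells. Ifi211 was at 218 and 217 TPM without and 1251 and 1199 TPM with poly(I:C), 5.63-fold higher (217 ± 0.746 to 1225 ± 36.2 TPM), and 91st by level with poly(I:C). The libraries of a group differed little beside the distance between the groups for both genes.

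Ifi208 and Ifi213, named Pydc3 and Pydc4 in older annotation after the pyrin domain, were the least abundant members in untreated cells and had large ratios. Ifi208 was at 4.87 and 4.16 TPM without and 45.04 and 40.99 TPM with poly(I:C), 9.53-fold higher (4.52 ± 0.503 to 43.0 ± 2.87 TPM). Its single-library ratios overlapped those of Ifi204 (8.10 to 9.71), so these 2 genes could not be ordered. It was still the lowest member after treatment. Ifi213 was at 25.5 and 21.5 TPM without and 170 and 152 TPM with poly(I:C), 6.86-fold higher (23.5 ± 2.78 to 161 ± 12.7 TPM). The ratios that single libraries give ranged from 8.41 to 10.8 for Ifi208 and from 5.98 to 7.90 for Ifi213, so these ranges did not overlap. On curated RefSeq transcripts only, the order was reversed, with a ratio of 9.21 for Ifi208 and 10.3 for Ifi213. The order of these genes by ratio therefore depends on the transcripts counted.

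The remaining members had ratios between 2.91 and 4.12. Mndal, named for its likeness to the human myeloid nuclear differentiation antigen, was at 131 and 119 TPM without and 537 and 495 TPM with poly(I:C), 4.12-fold higher (125 ± 8.12 to 516 ± 29.3 TPM). Ifi209, formerly Pyhin1, was at 59.2 and 57.1 TPM without and 233 and 219 TPM with poly(I:C), 3.89-fold higher (58.2 ± 1.45 to 226 ± 9.42 TPM). Ifi203 was at 42.2 and 33.2 TPM without and 141 and 127 TPM with poly(I:C), 3.56-fold higher (37.7 ± 6.34 to 134 ± 9.66 TPM). These 3 genes could not be ordered by ratio, since their single-library ranges overlapped. Ifi207 was the third most abundant member in untreated cells, at 198 and 168 TPM, and stood at 548 and 516 TPM with poly(I:C). Its ratio of 2.91 (183 ± 21.3 to 532 ± 23.0 TPM) was the lowest after that of Aim2, and its range of 2.61 to 3.27 overlapped that of Ifi203. In bulk RNA a higher level per cell and a larger share of cells expressing a gene cannot be told apart.

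Taken as a sum, RNA of the 10 genes was 1092 and 1016 TPM without and 5591 and 5273 TPM with poly(I:C). The sum was 5.15-fold higher with poly(I:C) (1054 ± 53.4 to 5432 ± 225 TPM) and made up 0.109% and 0.102% of all TPM without and 0.559% and 0.527% with it. Without Ifi205 the ratio of the sums was 4.44. The makeup of the sum moved as well. Ifi205 went from 25.3% and 26.6% of the sum to 36.2% in both treated libraries, and Ifi204 from 5.78% and 5.43% to 9.59% and 9.70%. The shares of Ifi207 and Aim2 moved the other way, from 18.1% and 16.5% to 9.81% and 9.79% for Ifi207 and from 6.77% and 6.93% to 1.90% and 1.92% for Aim2. Shares depend on each other, so a smaller share does not mean less RNA of that gene.

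**Figure D3:**
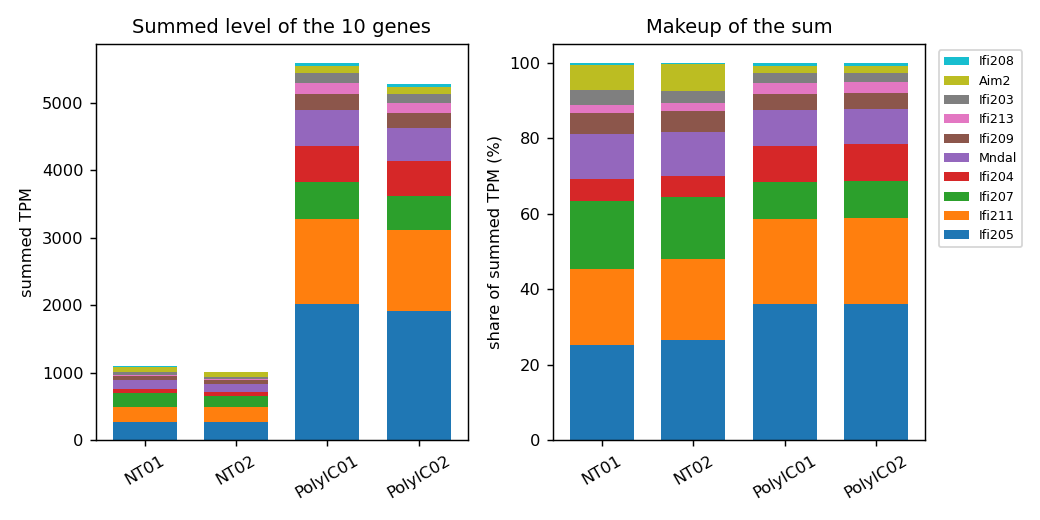
Summed TPM of the 10 members (left) and the share of each in the sum in percent (right), by library, as stacked bars. The sums reach 1092 and 1016 TPM untreated and 5591 and 5273 TPM treated, and Ifi205 takes 36.2% of both treated sums.

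How reads were divided between these copies limits the single values. The 31-mers given here come from another transcript set than the RefSeq transcripts of the TPM, many of them predicted. The shares are therefore only a guide to that limit. Among the protein-coding transcripts of GENCODE M21, Aim2 shared 0% of its 31-mers (all stretches of 31 bases) with the rest of the family, whereas Ifi211 shared 78.9%, Ifi205 56.5%, Ifi204 43.4%, Ifi208 41.6%, Mndal 40.6%, Ifi209 39.3%, Ifi213 25.1%, Ifi207 12.2% and Ifi203 9.68%. Ifi203 shared 23.4% with genes outside the family, in part the same 31-mers. The sharing formed 3 groups. The first holds Ifi206, Ifi208 and Ifi213, the second Ifi209 and Ifi214, which alternate with the first along the chromosome, and the third Ifi207, Ifi204, Mndal, Ifi211, Ifi203 and Ifi205. Over the 36 pairs of genes from different groups, at most 3 31-mers were shared, and over the 6 pairs between the first and second group 0 were. Ifi205 had 54.1% of its 31-mers in common with Ifi211, Ifi214 had 47.0% in common with Ifi209, and Ifi208 had 36.8% in common with Ifi213.

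**Figure D4:**
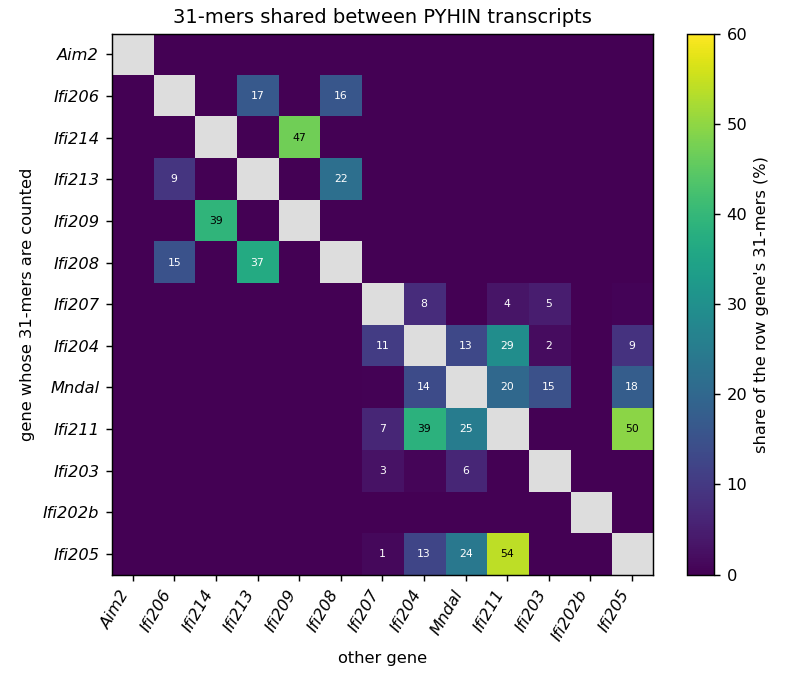
Share of each row gene's 31-mers that also occur in the column gene, in percent, for 13 PYHIN genes in chromosomal order; numbers are printed from 1% up. Sharing falls into 3 groups, the first 2 interleaved at upper left and the third at lower right, with at most 3 31-mers shared between groups, and the rows of Aim2 and Ifi202b are empty.

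Sums over a sharing group depend less on how reads were divided among its genes. The summed level of Ifi208 and Ifi213 was 30.3 and 25.7 TPM without and 215 and 193 TPM with poly(I:C), 7.29-fold higher. Ifi206 of the same group has no matched row, so this sum covers only part of its group. That of Ifi209 and Ifi214 was 59.4 and 57.2 TPM without and 234 and 221 TPM with poly(I:C), 3.90-fold higher. For Ifi203, Ifi204, Ifi205, Ifi207, Ifi211 and Mndal it was 928 and 863 TPM without and 5037 and 4759 TPM with poly(I:C), 5.47-fold higher. All 3 sums were higher in both treated libraries, and Aim2, which shares no 31-mer with any of these genes, stayed at 1.44-fold. Ifi205 and Ifi211 together were 6.50-fold higher (494 and 487 to 3274 and 3109 TPM).

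Single annotated transcripts of the members are given as a description as well. The table lists 49 transcripts for the 10 genes, of which 14 are curated and 35 predicted, and 6 predicted Aim2 transcripts are listed at 0 in all 4 libraries. Of the 37 with a mean of at least 1 TPM, 36 were higher in both treated than in both untreated libraries. The exception was a predicted transcript of Ifi203 at 3.46 and 1.25 TPM without and 6.99 and 3.35 TPM with poly(I:C). The same share over all transcripts was not computed, and the members were chosen with this comparison known. Nothing is therefore read from this count. Curated transcripts held 97.8% to 98.3% of the TPM of Ifi211 and 69.4% to 75.9% of that of Aim2, but only 10.5% to 18.7% of that of Mndal and 12.8% to 20.2% of that of Ifi213, so the levels of Mndal and Ifi213 rest mainly on predicted transcripts. On curated transcripts alone the ratio was 10.3 for Ifi213, 5.92 for Mndal and 2.47 for Ifi203, each over 1.4 times away from the value over all transcripts, and Mndal then gained rather than lost share in the family sum.

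The other family genes with a row were low. Ifi214 was at 0.205 and 0.0911 TPM without and 1.04 and 1.08 TPM with poly(I:C). Its mean was 7.14-fold higher, but it reached the expression limit only through the treated libraries, which fixes its direction, so no test is given. Given the 31-mers it shares with Ifi209, which was far more abundant, its value is uncertain. Ifi202b, which encodes a HIN-only inhibitor of AIM2 and is known to be little expressed in the C57BL/6 strain, was listed at 0 and 0.0922 TPM without and at 0.189 and 0.180 TPM with poly(I:C), and was below the limit.

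**Figure D5:**
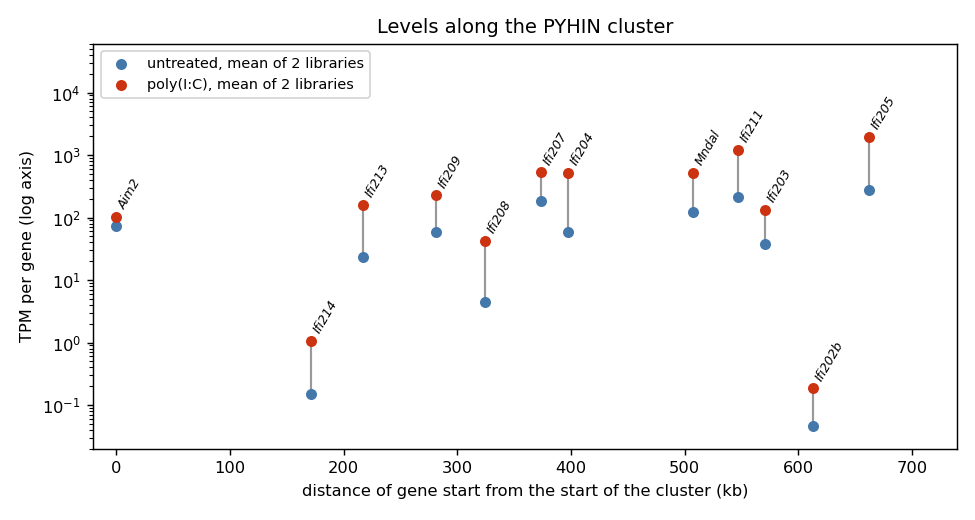
Mean TPM per gene (log axis, n = 2 libraries per group) by position in the cluster, for the 12 PYHIN genes with a row. Position is the distance in kb of the gene's lowest annotated coordinate, whatever its strand, from the start of the cluster. A line joins the untreated and the poly(I:C) mean. The lowest member mean is 4.52 TPM, of Ifi208 in untreated cells, while no library of Ifi214 or Ifi202b, which lie among the members, exceeds 1.08 TPM.

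Genes next to the array were mostly silent. Of the 10 genes with a row on each side, 20 in all and mainly olfactory receptor genes, 14 were listed at 0 in all 4 libraries and 3 could be tested. The olfactory receptor gene Olfr433 rose (3.20 and 4.05 to 6.36 and 7.52 TPM, log2 difference 0.78, adjusted p = 0.00313 in limma). Olfr432 was at 0.244 and 0.204 TPM without and 1.12 and 0.619 TPM with poly(I:C); it reached the limit only through the treated libraries, and without PolyIC01 it did not reach it. The predicted gene Gm36196 fell (8.88 and 7.89 to 1.88 and 3.61 TPM, -1.36, adjusted p = 0.00644), a call lost without NT01 (adjusted p = 0.112) and without NT02 (adjusted p = 0.1004). The summed level of the 20 flanking genes was 12.3 to 12.4 TPM untreated and 9.52 to 11.8 TPM treated, above the level of Ifi208 in untreated cells and below that of each of the other 9 members in both groups.

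The partners of AIM2 were measured in the same libraries. This list and those that follow were made up by known function, but with earlier results of these data known. Their counts stand beside 28.4% of all tested genes called as rising and 32.4% called as falling. Of 10 genes of the AIM2 inflammasome and pyroptosis, 9 were tested, 7 rose and 2 fell (median log2 difference 0.91, against -0.02 over all genes). Of these the rise of Casp8, named after its values were seen, was 0.19 and turned to -0.11 on curated transcripts only (adjusted p = 0.298 in limma). The gene outside the test was Pycard, which encodes the adaptor ASC that AIM2 needs to reach caspase-1: its 1 listed transcript was at 0.0584 and 0.0888 TPM without and 0.0776 and 0.0890 TPM with poly(I:C). It is named after its values were seen. Its groups overlapped, and in each library it lay far below Aim2 and below Casp1, which encodes caspase-1. Casp1 rose from 13.8 and 13.6 to 29.2 and 27.4 TPM (log2 difference 0.99, adjusted p = 4.85e-05 in limma). Gsdmd, the pore-forming target of caspase-1, rose from 52.1 and 52.0 to 103 and 101 TPM (0.96, adjusted p = 8.59e-06). Casp4, which encodes the mouse caspase that recognises cytosolic lipopolysaccharide, was at 0.143 and 0.0981 TPM without and 12.9 and 8.96 TPM with poly(I:C) (3.39). Like Ikbke, Irf7, Fcgr1 and Pacsin1 among the genes that follow, it reached the expression limit only through the treated libraries. This fixes the direction of these 5 genes, so their p is not given, although the counts of genes that rose include them.

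The cytokine genes downstream of caspase-1 moved apart. Il1b rose from 2.81 and 2.57 to 107 and 103 TPM (4.84, adjusted p = 4.73e-07 in limma) and Il1a, which is not cut by caspase-1, from 23.7 and 21.9 to 44.7 and 43.0 TPM (0.91, adjusted p = 6.38e-05). Il18 fell from 14.2 and 11.4 to 7.89 and 6.59 TPM (-0.74, adjusted p = 0.00403). Genes of other inflammasome sensors moved little. Of 12, 8 were tested: 3 rose and 5 did not pass, with 1 lower at an unadjusted p of 0.05 in limma, and the median difference was -0.09. Nlrc4, the sensor coupled to flagellin receptors, rose from 11.5 and 11.2 to 17.6 and 16.9 TPM (0.56, adjusted p = 0.000473; on curated transcripts only 1.72, adjusted p = 0.0993), and Nlrp3, a sensor of membrane damage and ion flux, from 24.6 and 25.04 to 32.2 and 30.99 TPM (0.34, adjusted p = 0.00164). The flagellin receptor gene Naip6 (10.2 and 8.35 to 8.13 and 6.96 TPM, adjusted p = 0.101) did not pass. Nor did Naip1, a gene of the same family (1.67 and 1.55 to 1.17 and 1.21 TPM, adjusted p = 0.0530). In limma without trend or robust moderation Naip1 passed as lower (adjusted p = 0.0127). Leaving out NT02 brought Naip6 under the threshold (adjusted p = 0.0167). Naip5, named after its values were seen, did not pass (-0.18), fell without NT02 (-0.27, adjusted p = 0.0158) and rose on curated transcripts only (0.45, adjusted p = 0.0205). The call of Naip2, the third that rose and named after its values were seen, was lost without NT02, PolyIC01 or PolyIC02 (adjusted p = 0.0979, 0.144 and 0.0871).

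Genes of cytosolic DNA sensing outside the family had no common direction. All 21 were tested; 9 passed as higher and 8 as lower, the median difference being 0.01. One of the falls, that of Mre11a (-0.32), named after its values were seen, turned to 0.18 on curated transcripts only (adjusted p = 0.110 in limma). The nucleic acid sensor gene Zbp1 rose from 19.6 and 17.8 to 254 and 243 TPM (3.66, adjusted p = 8.06e-07 in limma). Trex1, which encodes the exonuclease that removes cytosolic DNA, rose from 112 and 112 to 523 and 540 TPM (2.24, adjusted p = 4.82e-07), and Samhd1, which encodes a nucleotide-degrading enzyme, from 112 and 107 to 306 and 292 TPM (1.44, adjusted p = 4.09e-06). Ikbke, a kinase gene of interferon induction, went from 0.0661 and 0.0647 to 4.27 and 3.56 TPM (2.203). Cgas, the enzyme that senses DNA and makes the messenger cGAMP, rose from 24.8 and 22.8 to 36.4 and 36.1 TPM (0.59, adjusted p = 0.00034), a step close in size to that of Aim2. The chromatin protein genes Hmgb2 (30.5 and 31.6 to 14.1 and 14.0 TPM, -1.09) and Hmgb1 (269 and 273 to 146 and 142 TPM, -0.90) fell, as did Xrcc5 (3.42 and 3.19 to 1.37 and 1.17 TPM, -0.93) and Xrcc6 (55.3 and 54.1 to 33.1 and 31.1 TPM, -0.75) of the Ku heterodimer that binds DNA ends.

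In the list of transcription factor genes of the interferon response, 7 of 7 passed as higher, against 28.4% of all tested genes. Their median difference was 1.49. The count includes Irf7, whose direction the expression limit fixed, and Irf8, whose call was not stable. Any part of these genes in the values of the members was not tested. Irf7 went from 0.232 and 0.247 to 41.4 and 37.5 TPM (5.03). Stat2 rose from 53.2 and 47.0 to 211 and 196 TPM (2.00) and Irf1 from 82.2 and 73.3 to 224 and 216 TPM (1.49). Irf2, which encodes a competitor of IRF1, rose by 0.64 and Irf9, a DNA-binding partner of STAT2, by 0.52. Irf8, the cDC1 lineage factor, passed narrowly (2482 and 2477 to 2558 and 2639 TPM, 0.07, adjusted p = 0.0497), and its call was lost under 7 alternatives, among them leaving out NT01 (adjusted p = 0.136), NT02 (0.154) or PolyIC02 (0.261).

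By distance of log2(TPM + 1) over the 4 libraries, the 5 genes outside the family nearest to its summed TPM were Ifitm3 (distance 0.81, 1188, 1194, 3734 and 3729 TPM in the order NT01, NT02, PolyIC01, PolyIC02), Lgals3 (1.498), H2-D1 (1.73), B2m (1.77) and Cyba (1.81). All 5 lay at or above the level of the sum in untreated cells, and their ratios of 1.62 to 3.13 were below that of the sum.

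Markers of the labelled cell type were present in the libraries. All 12 cDC1 markers were measured, and their summed level was 4933 to 4974 TPM untreated and 4794 to 4896 TPM treated, with 5 rising, 4 falling and 3 not passing. Much of this sum was Irf8 (2482 and 2477 TPM untreated, 2558 and 2639 TPM treated), so the sum says little about the other markers. The largest change among the 12 markers was in Cd24a, which encodes a surface glycoprotein and fell by 1.42 on the log2(TPM + 1) scale. Itgae, the lowest, lay between 0.490 and 0.918 TPM. Of 12 macrophage and monocyte markers 9 were tested, 6 rose and 1 fell, and their sum was 568 to 573 TPM untreated and 783 to 812 TPM treated. Within that list Csf1r was listed at 0 in both treated libraries and Mertk was at most 0.0387 TPM in any library, whereas the complement genes C1qb (log2 difference 3.24), C1qa (2.18) and C1qc (1.88) rose and the lysozyme gene Lyz2 fell (-1.07). The Fc receptor gene Fcgr1 was at 0.356 and 0.299 TPM without and 4.76 and 4.66 TPM with poly(I:C). The part of these genes in the values of the members was not tested. Summed plasmacytoid dendritic cell markers were 44.6 to 46.6 TPM untreated and 40.0 to 41.1 TPM treated, with 1 of 4 tested counted as rising (Pacsin1, at 0.402 and 0.318 TPM without and 3.90 and 4.02 TPM with poly(I:C)) and 2 falling. B cell markers (1 of 5 tested) summed to at most 7.05 TPM and T and NK cell markers (1 of 7 tested) to at most 1.75 TPM in any library, with the T and NK cell genes Cd3e, Cd3g and Ncr1 listed at 0 throughout.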

How the data were processed

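RNA was captured by poly(A) and made into directional libraries, per the labels' protocols. Tools named in the submitters' processing notes are bcl2fastq 2.20.0.422 and kallisto 0.42.4, with the build GRCm38. The authors' deposited table gives TPM for 107384 RefSeq transcripts, quantified before deposit by steps not given in the sources used here; it is named FPKM, but each column used sums to 1000000, which FPKM need not, and the values were treated as TPM. TPM keeps no sequencing depth, which is therefore unknown, and no counting interval was made. The header names 5 of 6 value columns, and 2 value columns stayed out of every step.

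Accessions without version matched a RefSeq symbol (GRCm38.p6) for 86722 transcripts (80.8%, holding 91.8% to 92.2% of TPM), and TPM were summed per gene. Transcripts of a member that did not match are not in its sum. Genes averaging 0.5 TPM or more were fitted on log2(TPM + 1) with limma 3.58.1 (trend, robust; R 4.3.3), adjusted over all 12520 genes by Benjamini-Hochberg, with 2 residual degrees of freedom; a gene rose or fell at an adjusted p under 0.05. Differences on this scale understate low genes. Simulated data with known changes were used to test the fit. Motifs, 31-mers and figures were made with Python 3.11.15, pandas 2.3.3 and matplotlib 3.10.9. A planned comparison of protein sequences was not made. Alternatives were other pseudocounts, filters and moderation, TMM (trimmed mean of M values) rescaling computed on TPM, curated transcripts only, and leaving out each library.

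The members and lists were chosen with earlier results of these data known. The genes named are all members, all other PYHIN genes, up to 2 passing flanking genes per direction, in the other lists each gene that passed at least 2-fold and up to 4 more by size of change, and the 5 genes nearest to the family sum; a gene that this rule names in the lists is not reported here.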

Additional observations from a re-analysis of the deposited data

How the results depend on the processing

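Depth is unknown and 2 libraries stand for each group, which limits every value here. No paired analysis was possible because the columns carry no settled replicate numbers. Of the members' log2 differences, 73 of 80 recomputed values moved by less than the spread between libraries, 7 moved by more and none changed sign under the settings run. The 80 include the values with a library left out. With 2 libraries per group, leaving a library out cannot move a difference beyond this spread. Nor can it change a sign where the groups do not overlap, so nothing is read from that part of the count. The summed TPM of the members was 5.48-fold higher on curated transcripts only, 5.30-fold with TMM rescaling and 4.98 to 5.35-fold when a library was left out, beside 5.15-fold. On curated transcripts only, the share of Mndal in the sum changed by 0.14 points instead of -2.38, since most of its TPM is on predicted transcripts. With a mean of at least 2 TPM required, 0 other PYHIN genes and 1 flanking gene rose, because Ifi214 and Olfr432 were no longer tested. On curated transcripts only, 0 flanking genes fell, because Gm36196 was not tested. When a library was left out, 0 to 1 other PYHIN genes and 1 to 2 flanking genes rose, 0 to 1 flanking genes fell, and 0 to 2 other inflammasome sensors fell. In limma without trend or robust moderation 1 other inflammasome sensor fell, namely Naip1. The cause was not tested. Over all genes, 2561 to 4049 rose and 3402 to 4057 fell under the alternatives.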
